A study of Mus musculus with 24 samples.

Results

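Transcripts of 9 genes of arginine, ornithine and creatine metabolism were followed in whole kidneys of 24 mice. The genes were taken by symbol from a fixed list, with no regard to measured values in the rule itself, and were Gatm, Gamt, Ass1, Asl, Arg2, Oat, Ckb, Ckmt1 and Agmat. They are 9 of the 55335 genes listed in each kidney's file, and all 9 were among the 16092 genes tested. The mice were on the C57BL/6J background and carried Pex5lox/lox, controls included. Mice named cKOm (males) and cKOf (females) also carried the Pax8-rtTA and LC1 transgenes. In these mice, DOX (doxycycline) induces deletion of Pex5 in the renal tubule. Their Ctrlm and Ctrlf littermates had Pex5lox/lox alone, and all groups of 6 mice received DOX for 2 weeks from the age of 8 weeks. Kidneys were taken 4 weeks after the treatment ended, at ZT 9 (hours after light on) per the extraction protocol, while the growth protocol and the study's methods place all experiments at ZT 3. The controls had no transgenes, so the deletion and the presence of the transgenes cannot be told apart.

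The kidney is the main site of the body's own synthesis of arginine. Cells of the proximal tubule take up citrulline released by the gut, argininosuccinate synthase (Ass1) joins it to aspartate, and argininosuccinate lyase (Asl) splits the product into arginine and fumarate. Arginine then has several fates. The mitochondrial arginase Arg2 cuts it into urea and ornithine, ornithine aminotransferase (Oat) passes ornithine on toward glutamate and proline, and agmatinase (Agmat) splits agmatine, the decarboxylated form of arginine, into putrescine and urea. The first step of creatine synthesis also uses arginine. Glycine amidinotransferase (Gatm) makes guanidinoacetate and ornithine in renal mitochondria, guanidinoacetate methyltransferase (Gamt) completes creatine mostly in the liver, and the creatine kinases Ckb (cytosolic) and Ckmt1 (mitochondrial) load it with phosphate. Pex5, the gene deleted here, encodes the receptor that brings most matrix enzymes into peroxisomes. None of the 9 enzymes is a textbook peroxisomal enzyme.

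Between 19376152 and 28470831 reads per kidney fell on genes, with a median of 21592601. Levels are given as CPM, the reads of a gene scaled to the size and composition (TMM) of each library, and 3 reads, the floor of detection, were 0.105 to 0.155 CPM. The floor covers counting error only. For Pex5, Ctrlm mice had 54.3 ± 4.63 and cKOm mice 43.7 ± 1.94 CPM (SD, n = 6), and it fell in males (log2 fold change -0.31, edgeR adjusted p = 0.0219), while the 50.3 ± 6.97 of Ctrlf and 43.6 ± 3.55 of cKOf mice did not pass the test (adjusted p = 0.177). By its own assays, the study reported less Pex5 mRNA in kidneys of both sexes and almost no peroxisomes in proximal tubules of either. In cKOf mice some full-length mRNA and PEX5 protein remained, for which the paper proposes incomplete excision, while cKOm kidneys had almost no protein. Differences between the male and the female change therefore cannot be told apart from differences in the completeness of deletion. Some male kidneys stood apart. Alb, the albumin gene of hepatocytes, was 456, 547, 662 and 224 CPM in Ctrlm kidneys 1 to 4 and 235 in cKOm kidney 4, against 15.1 to 34.5 in the other male kidneys. Of 17 hepatocyte markers, 1 rose (4.14% of all tested genes rose) and 4 fell (4.9% fell) in cKOm mice. In controls, 15 of the 17 were lower in Ctrlf than in Ctrlm mice (8.71% of all tested genes). The summed level of the 17 was 1747 to 4204 CPM in Ctrlm, 1008 to 1592 in cKOm, and 240 to 422 across females, and no group had a marker at 0 throughout. The list includes Cyp2e1, which proximal tubules of male mice also express. Results in males are therefore also given without these 5 kidneys, which leaves 2 Ctrlm and 5 cKOm mice.

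Per length of exons, Ass1 was the most abundant of the 9 in every group and Agmat the least. Ass1 stood at 643 ± 74.1 CPM per kilobase in Ctrlm mice (SD, n = 6), the 31st highest mean of the 16092 genes in that group. Gatm followed at 240 ± 46.4, and its rank lay between 80 and 106 in the 4 groups. Oat, at 53.5 ± 5.83 CPM per kilobase in Ctrlm and 142 ± 20.7 in Ctrlf mice, came next in every group. Asl, Ckb and Ckmt1 lay close together, with group means of 18.8 to 30.0 CPM per kilobase. Their ranges overlapped within each group, other than those of Asl (24.5 to 31.7) and Ckb (16.6 to 21.7) in cKOm mice. Gamt was between 4.79 and 6.08. Arg2 was the gene whose place depended most on the group, at 1.86 ± 0.669 CPM per kilobase in Ctrlm mice, below Gamt, and 11.9 ± 1.55 in Ctrlf mice, above it. Agmat, at 0.524 to 1.22, rested on 7 to 70 reads in a kidney.

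**Figure D1:**
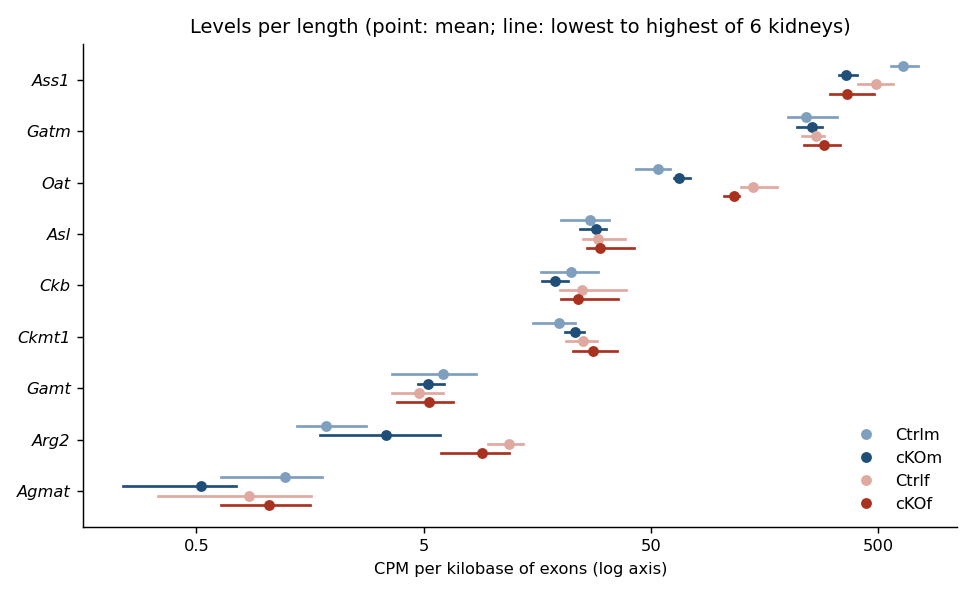
Level of each of the 9 genes per length in the 4 groups, in CPM per kilobase of exons on a log axis. Points are means and lines run from the lowest to the highest of 6 kidneys. Ass1 and Gatm stand above all others, and Oat and Arg2 show the widest gap between male and female groups.

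In males, 4 of the 9 transcripts changed with the deletion at the threshold of 0.05 for the adjusted p (44.4%, beside 9.05% of all tested genes). Arg2 and Oat rose (4.14% of all tested genes rose), Ass1 and Agmat fell (4.9% of all tested genes fell), and Gatm, Gamt, Asl, Ckb and Ckmt1 did not pass. The median log2 fold change of the 9 was 0.08, beside 0.01 for all tested genes, so the set had no common direction. In females, 1 of the 9 passed between cKOf and Ctrlf mice (11.1%, beside 0.851% of all tested genes, and 0.46% that fell), and this was Ass1, which fell there too. The 9 genes were listed with earlier results of these data known, so these shares describe them and no more. In whole kidneys, fewer cells of a type and less RNA per cell cannot be told apart.

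**Figure D2:**
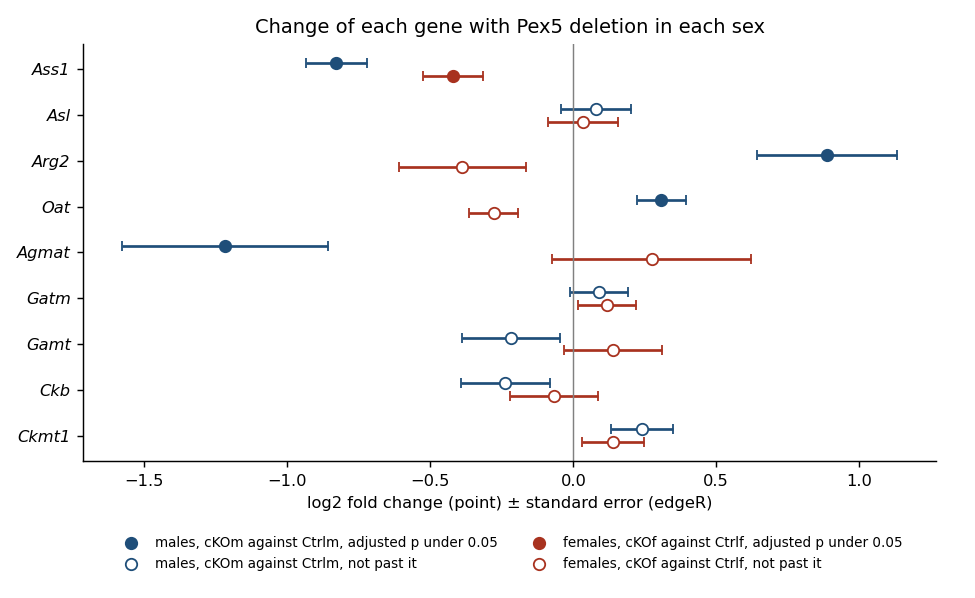
Log2 fold change of each gene with Pex5 deletion (point) and its standard error (bar), in males (blue) and females (red). Filled points have an edgeR adjusted p under 0.05: Ass1 in both sexes, and Arg2, Oat and Agmat in males.

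Ass1, the entry step of arginine synthesis, was the only 1 of the 9 genes to pass in both sexes. Ctrlm kidneys ranged from 1377 to 1806 CPM with a median of 1504, and cKOm kidneys from 812 to 976 with a median of 865. Every cKOm kidney lay below every Ctrlm kidney, which held in the lower direction for 3.69% of all tested genes. The mean of cKOm mice was 56.3% of that of Ctrlm mice (log2 fold change -0.83, standard error 0.11, adjusted p = 5.48e-06). In females, Ctrlf kidneys ranged from 983 to 1411 CPM with a median of 1164, and cKOf kidneys from 740 to 1157 with a median of 841. The groups overlapped through cKOf kidney 6, at 1157 CPM, since the other 5 cKOf kidneys lay below every Ctrlf kidney. The female mean fell to 74.6% of control (log2 fold change -0.42, standard error 0.10, adjusted p = 0.014). The male and the female change differed by -0.41 on the log2 scale, which did not pass the test of the difference (adjusted p = 0.184).

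The male fall of Ass1 passed the threshold in all 34 alternative fits, with log2 fold changes from -0.92 to -0.80 and adjusted p values of at most 0.00138, the value without the 5 kidneys high in liver transcripts. Hepatocytes also express Ass1, and the part of liver transcripts in the Ass1 result was not tested. The 2 Ctrlm kidneys with the least Alb, at 24.7 and 15.1 CPM, held 1402 and 1806 CPM of Ass1, both above every cKOm kidney, and cKOm kidney 4, with 235 CPM of Alb, held 900 (plot of Ass1 and Agmat against Alb). The female fall passed in 32 of 34 alternatives, and not with p values adjusted within each sex (adjusted p = 0.107) or with each sex fitted alone (0.0501). Markers of the straight part of the proximal tubule (S3) moved with Ass1 in males. Their summed level was 3159 to 4414 CPM in Ctrlm but 1322 to 1989 in cKOm mice. Of the 5 markers 4 fell (4.9% of all tested genes fell) and none was at 0. The sum was 2464 to 3499 CPM for Ctrlf and 2034 to 3153 for cKOf mice, where none of the 5 passed. All 5 also differed between the sexes in controls, 2 higher and 3 lower in Ctrlf mice (16.8% of all tested genes differed). The part of these markers in the Ass1 result was not tested. The 10 general proximal tubule markers summed to 12137 to 13538 CPM for Ctrlm and 10644 to 13086 for cKOm mice, with 3 of them lower.

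**Figure D3:**
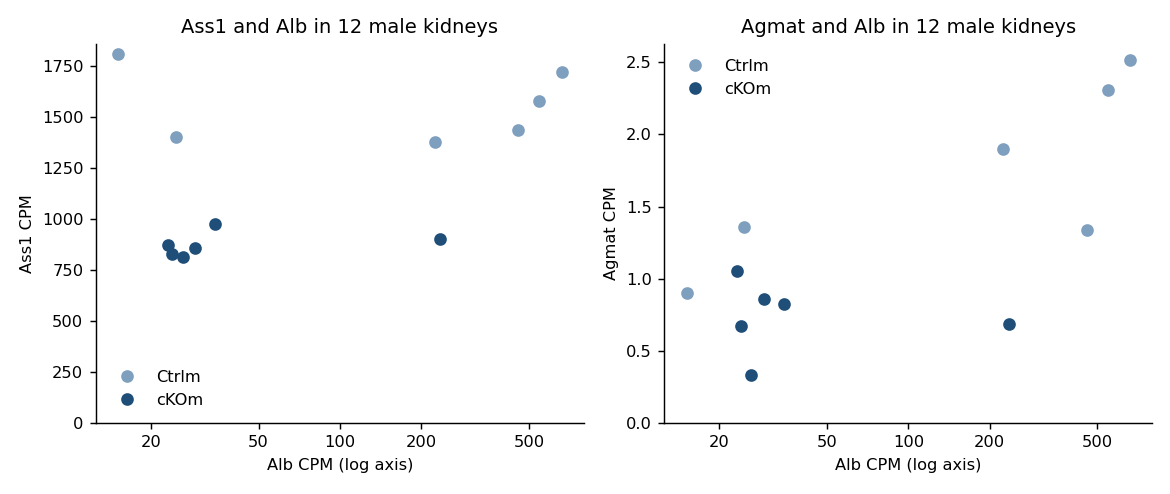
CPM of Ass1 (left) and Agmat (right) against CPM of Alb (log axis) in the 12 male kidneys, light points Ctrlm and dark points cKOm. At low Alb, the 2 Ctrlm kidneys stand above all cKOm kidneys for Ass1 and lie among or near them for Agmat.

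Ass1 lies on chromosome 2 of GRCm38, from 31470207 to 31520672 on the plus strand, and its exons in GENCODE cover 2414 bases. A near-identical copy, Gm5424, matches 1240 bases of an Ass1 transcript at 99.5% identity, so reads could be split between them. Ctrlm mice had 13.5 ± 1.37 and cKOm mice 8.02 ± 3.07 CPM of Gm5424 (SD, n = 6). The sum of Ass1 and Gm5424 was 1565 ± 179 and 882 ± 60.2 CPM, and ranged from 1390 to 1819 and from 819 to 984, so the male groups did not overlap in the sum either. Reads without a unique place in the genome were not counted on either gene. The bases before the start of Ass1 and of Oat, the 2 genes with no overlap between male genotypes, in opposite directions, are printed here from RefSeq on GRCm38.p6, 5′ to 3′. Capitals mark CCAAT boxes on either strand, and the Ass1 stretch ends before the start that GENCODE gives.
Ass1, chr2:31470020-31470206, plus strand: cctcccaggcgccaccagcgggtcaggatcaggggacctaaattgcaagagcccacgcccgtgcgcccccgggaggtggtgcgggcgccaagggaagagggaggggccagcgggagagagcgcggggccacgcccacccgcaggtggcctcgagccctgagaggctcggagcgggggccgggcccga
Oat, chr7:132576399-132576648, minus strand: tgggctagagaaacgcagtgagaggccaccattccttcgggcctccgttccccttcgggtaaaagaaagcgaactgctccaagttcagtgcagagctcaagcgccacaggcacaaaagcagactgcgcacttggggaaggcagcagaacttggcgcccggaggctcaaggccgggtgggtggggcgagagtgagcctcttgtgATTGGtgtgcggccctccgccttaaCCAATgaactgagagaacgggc
The Ass1 stretch of 187 bases is 75.4% G or C and the Oat stretch of 250 bases 60%, beside a median of 52.4% over 32851 promoter windows of 250 bases in the same table. RefSeq places the Ass1 start further in, and its window also holds a GC box (GGGCGG, in 32.7% of windows) and an E-box (CACGTG, in 6.02%), 57 and 30 bases before that start. Oat has the CCAAT box (CCAAT, in 33.8% of windows) as ATTGG 42 bases and as CCAAT 17 bases before its start. Neither window holds AGAACA, a half-site of the androgen receptor's element (16.1% of windows), or AGGTCA, a half-site of many nuclear receptors (14%). All letters were searched on both strands, and such matches describe the sequence only. Windows were in the table for 7 of the 9 genes, Asl and Arg2 having none.

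Asl, the second step of arginine synthesis, was not seen to follow Ass1. Ctrlm mice had 131 ± 20.5 and cKOm mice 138 ± 11.9 CPM of Asl, and Ctrlf mice had 142 ± 24.9 and cKOf mice 145 ± 29.8 (SD, n = 6), with overlapping ranges. The log2 fold change was 0.08 in males (standard error 0.12, adjusted p = 0.835) and 0.03 in females (standard error 0.12, adjusted p = 0.945). A change as large as that of Ass1 in males lies several standard errors away from both.

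Oat and Arg2, which carry arginine nitrogen on through ornithine, rose in males, while their log2 fold changes in females were negative but did not pass. Oat ranged from 102 to 143 CPM in Ctrlm kidneys with a median of 127, and from 149 to 175 in cKOm kidneys with a median of 154. It rose in males by 0.31 on the log2 scale (standard error 0.09, adjusted p = 0.0325), and the groups did not overlap, as for 3.69% of tested genes in this direction. In females it ranged from 295 to 424 CPM in Ctrlf with a median of 315, and from 247 to 290 in cKOf with a median of 282. These groups did not overlap either, with the deleted group lower (0.292% of tested genes in this direction), but the log2 fold change of -0.28 (standard error 0.09) missed the threshold (adjusted p = 0.0564). The male change exceeded the female change by 0.59 on the log2 scale (edgeR test of the interaction, adjusted p = 0.00552). Oat was thus among the 2 of 9 genes with a called interaction (22.2%, beside 2.31% of all tested genes).

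The rise of Oat in males did not pass in 15 of 34 alternatives, 10 of them with a mouse left out. Its log2 fold change stayed between 0.23 and 0.35 over the 34. Leaving out the 5 kidneys high in liver transcripts gave 0.23 (adjusted p = 0.459), and the liver covariate gave 0.26 (adjusted p = 0.211). The interaction held in 31 of 32 alternatives, each mouse left out in turn among them, and was 0.51 (adjusted p = 0.0978) without those 5 kidneys. Oat lies on chromosome 7 from 132557478 to 132576398 on the minus strand, within the span of Fgfr2 on the same strand but with no shared exon. The markers of the thick ascending limb, a later nephron segment, were higher with Oat in males. They summed to 4741 to 5964 CPM for Ctrlm and 6113 to 7040 for cKOm mice. Of the 5 markers 2 were called higher (4.14% of all tested genes rose) and none was at 0. In females the sum was 6861 to 7914 CPM for Ctrlf and 6304 to 7442 for cKOf mice, with none called. In controls 4 of the 5 were higher in Ctrlf than in Ctrlm mice (8.11% of all tested genes). The S3 markers fell in the same males. The part of either list in the Oat result was not tested.

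Arg2, the mitochondrial arginase, was a minor transcript in males. Ctrlm kidneys ranged from 1.98 to 3.96 CPM with a median of 2.08, and cKOm kidneys from 2.5 to 8.39 with a median of 4.18. The 4 lowest kidneys were Ctrlm, and the groups overlapped. Arg2 rose in males by 0.89 on the log2 scale (standard error 0.25, adjusted p = 0.03). In females it ranged from 13.7 to 19.5 CPM in Ctrlf with a median of 17.6, and from 8.50 to 16.9 in cKOf with a median of 13.8. The female log2 fold change of -0.39 did not pass the test (standard error 0.22, adjusted p = 0.421), and the difference between male and female change was 1.28 (adjusted p = 0.0354).

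Both calls on Arg2 were near the threshold. The male rise was lost in 10 of 34 alternatives, with adjusted p values up to 0.116, and without the 5 liver-high kidneys it was larger, at 1.32, but did not pass (adjusted p = 0.065). Leaving out Ctrlm kidney 2, 3, 5 or 6 or cKOm kidney 3 or 6 ended the call, with adjusted p values from 0.0707 to 0.114. The interaction was lost in 13 of 32 alternatives, with adjusted p values up to 0.0759. Arg2 lies on chromosome 12 from 79130777 to 79156301 on the plus strand, and its exons overlap those of Vti1b and of Gm48780 on the opposite strand. Vti1b held 44382 reads over all kidneys against 5080 for Arg2. The library kit keeps the strand, but whether the counting used it is not given in the sources used here, so reads of the overlap cannot be assigned with certainty.

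Agmat, which leads from agmatine to putrescine, was near the limit of detection. It ranged from 0.904 to 2.52 CPM in Ctrlm kidneys with a median of 1.63, and from 0.335 to 1.06 in cKOm kidneys with a median of 0.754. The groups overlapped, and Agmat fell in males by 1.22 on the log2 scale (standard error 0.36, adjusted p = 0.0462). Ctrlf mice had 1.20 ± 0.678 and cKOf mice 1.46 ± 0.530 CPM (SD, n = 6), and the log2 fold change was 0.27 (standard error 0.35, adjusted p = 0.788). The male fall was lost in 19 of 34 alternatives. In Ctrlm kidneys 1 to 4, high in Alb, Agmat was 1.34, 2.31, 2.52 and 1.90 CPM, and in the 2 Ctrlm kidneys low in Alb it was 1.36 and 0.904. The cKOm kidney with 235 CPM of Alb held 0.684, below the median of its group. Among females, 2 kidneys with 56.1 and 55.3 CPM of Alb held 2.25 and 2.22. The female kidney with the most Alb, cKOf kidney 5 at 60.2 CPM, held 1.56. With 26.6 and 21.6 CPM of Alb, cKOf kidney 2 and Ctrlf kidney 5 held 1.92 and 1.73. The part of liver transcripts in the Agmat result was not tested. Without the 5 kidneys high in liver transcripts the log2 fold change was -0.63 (adjusted p = 0.691), and with the liver covariate it was -0.74 (adjusted p = 0.496).

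Transcripts of creatine synthesis and of the creatine kinases did not pass the test in either sex. Gatm, the renal step, stood at 722 ± 139 CPM (SD, n = 6) for Ctrlm, 767 ± 69.2 for cKOm, 797 ± 62.7 for Ctrlf and 865 ± 104 for cKOf mice. Its log2 fold change was 0.09 in males (standard error 0.10, adjusted p = 0.756) and 0.12 in females (standard error 0.10, adjusted p = 0.649), and the ranges overlapped in each sex. Gamt, the second step, was 8.78 ± 2.49, 7.56 ± 0.837, 6.91 ± 1.19 and 7.63 ± 1.71 CPM in the same order. The Gamt log2 fold change was -0.22 in males (standard error 0.17, adjusted p = 0.608) and 0.14 in females (standard error 0.17, adjusted p = 0.778). Among the kinases, Ckb was 64.4 ± 12.5, 54.6 ± 6.45, 72.3 ± 20.2 and 69.1 ± 17.3 CPM, with log2 fold changes of -0.24 in males (adjusted p = 0.506) and -0.07 in females (adjusted p = 0.899). Ckmt1 was 49.3 ± 8.31, 58.2 ± 4.26, 63.0 ± 6.39 and 69.3 ± 11.5 CPM, with log2 fold changes of 0.24 in males (adjusted p = 0.264) and 0.14 in females (adjusted p = 0.606). None of these 4 genes passed in any of the 34 alternatives in either sex. Skeletal muscle markers, Ckm of the muscle creatine kinase among them, summed to 544 CPM in Ctrlf kidney 4, which also had the highest Ckb of its group, at 112 CPM. They summed to 97.5 in cKOf kidney 6, whose Ckb of 104 CPM was the highest of that group, but to 118 in cKOf kidney 4 and 87.4 in cKOf kidney 1, whose Ckb lay within 58.3 to 66.1. Ctrlf kidney 5, with 117 CPM of muscle markers, had the lowest Ckb of its group, at 57.4 CPM.

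**Figure D4:**
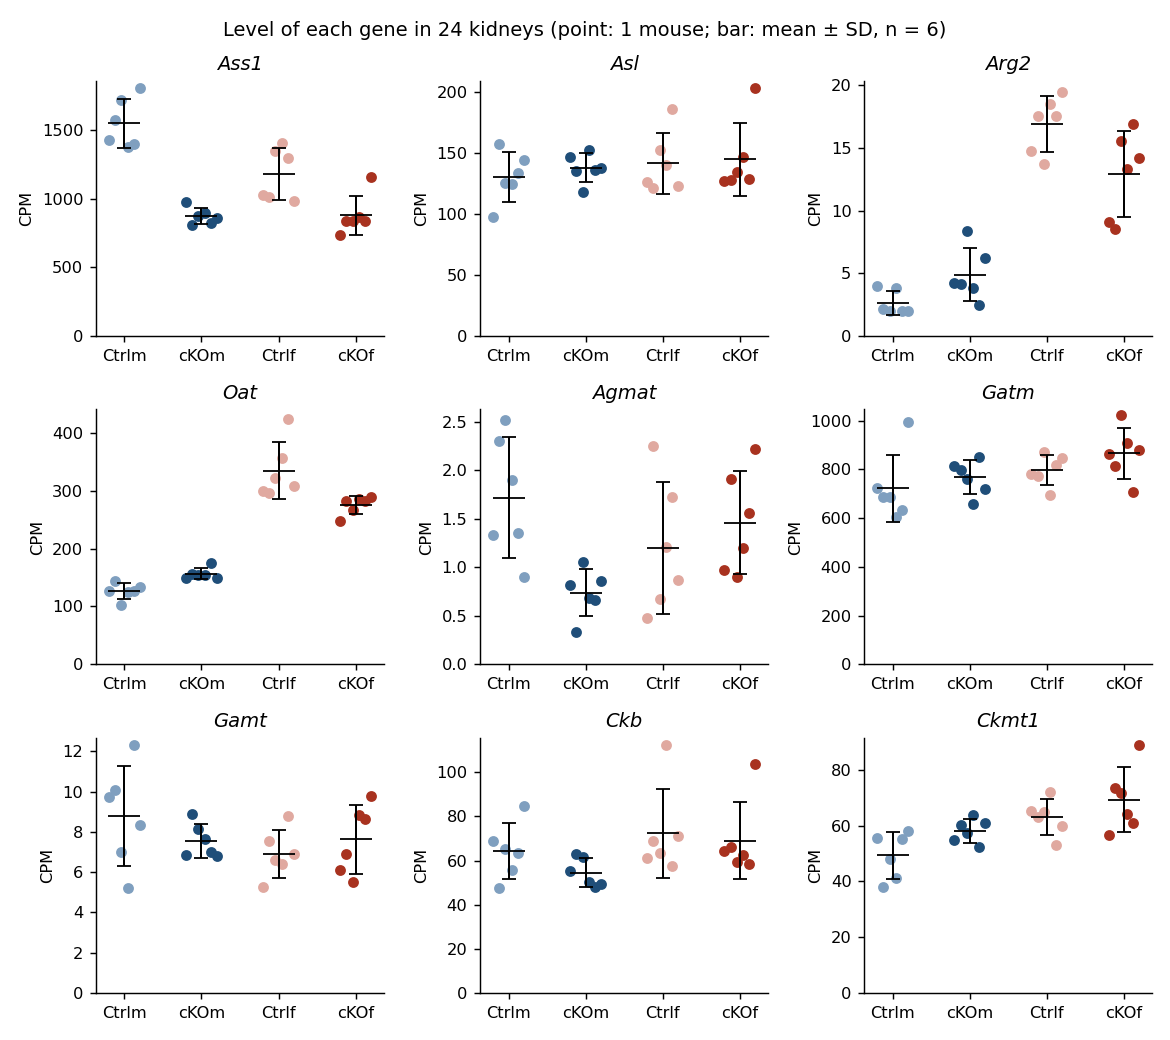
CPM of each of the 9 genes in every kidney (points), with the mean and SD of 6 mice (bars), by group. Ass1 and Oat show no overlap between Ctrlm and cKOm kidneys, Oat and Arg2 show none between Ctrlm and Ctrlf kidneys, and the genes of creatine metabolism overlap between genotypes throughout.

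Without deletion, 4 of the 9 genes differed between Ctrlf and Ctrlm mice (44.4%, beside 16.8% of all tested genes), with 3 higher in Ctrlf mice (8.11% of all tested genes) and 1 lower (8.71%). This comparison shares its kidneys with those above. The Arg2 mean of Ctrlf mice was 639% of that of Ctrlm mice (log2 fold change 2.68, standard error 0.25, adjusted p = 3.68e-09) and that of Oat 264% (log2 fold change 1.40, standard error 0.09, adjusted p = 1.72e-12), both with no overlap between the sexes, as for 3.4% of tested genes in this direction. Ass1 was lower in females, at 76.1% of the male level (log2 fold change -0.39, standard error 0.10, adjusted p = 0.00855), with overlapping ranges. Ckmt1 was higher in females (log2 fold change 0.35, adjusted p = 0.0228). The calls on Arg2 and Oat passed in all 32 alternatives. Without the 5 kidneys high in liver transcripts, the Ass1 difference was larger, at -0.47, but was not called (adjusted p = 0.0576), and Ckmt1 was 0.13 (adjusted p = 0.627). With the liver covariate, Ass1 was -0.36 (adjusted p = 0.123) and Ckmt1 0.35 (adjusted p = 0.151). The Ckmt1 call was also lost without Ctrlf kidney 4 or Ctrlm kidney 2 or 4 (adjusted p from 0.0612 to 0.0776). The order of the group means was Ctrlm, Ctrlf, cKOf and cKOm from high to low for Ass1, where the means of the last 2 differed by less than their spread. For Oat and Arg2 it was Ctrlf, cKOf, cKOm and Ctrlm, and for Oat no neighbours in that order overlapped.

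The wider network was read from a list of 36 further genes of arginine, ornithine, proline, polyamine and creatine handling, of which 33 were tested and Nags, Pycr1 and Slc25a2 were too low. In males, 2 of the 33 rose and 5 fell (21.2%, beside 9.05% of all tested genes), with a median log2 fold change of -0.12. In females, 1 fell (3.03%, beside 0.851%), with a median of 0.01. Carriers of arginine and ornithine held 4 of the 7 male calls among 9 tested, while none of 5 nitric oxide genes and 1 of 6 genes each of the proline and the polyamine branch passed.

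**Figure D5:**
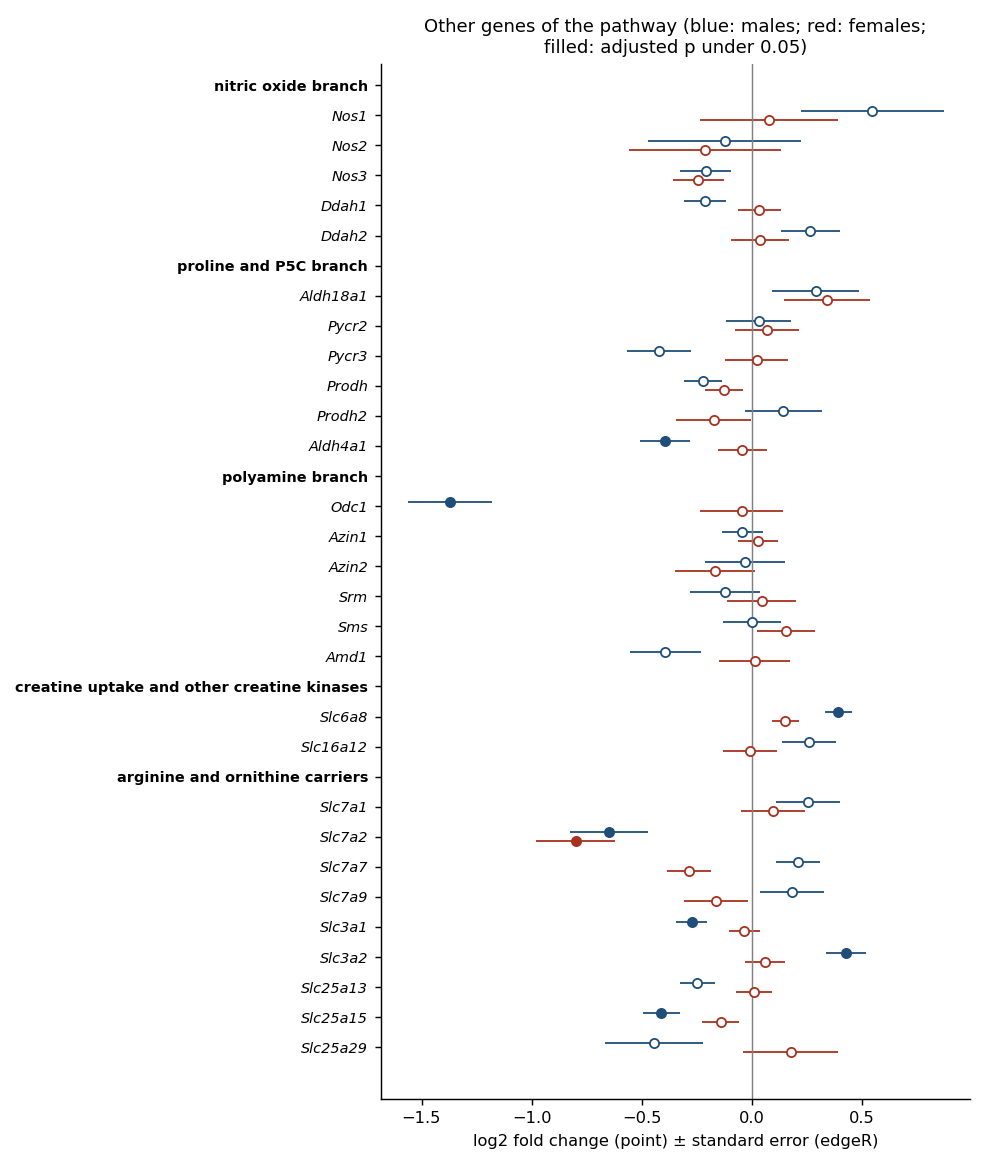
Log2 fold change (point) and standard error (bar) of the further genes in males (blue) and females (red), by branch, with filled points for an edgeR adjusted p under 0.05. Among the filled points, those of Odc1 in males and of Slc7a2 in both sexes lie furthest to the left. Not drawn are Cps1, Otc, Arg1, Ckm and Ckmt2, whose reads came from a few kidneys.

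Odc1, which turns ornithine into putrescine, had the largest fall among the list's genes that passed in males. It ranged from 725 to 2499 CPM in Ctrlm, with a median of 1435, and from 473 to 630 in cKOm mice, with a median of 583. The log2 fold change was -1.37 (standard error 0.19, adjusted p = 2.34e-05), and the call held in all 34 alternatives. Ctrlf mice had 474 ± 87.3 and cKOf mice 459 ± 43.9 CPM of Odc1 (SD, n = 6, adjusted p = 0.95), and the male change differed from the female change by -1.33 (adjusted p = 0.00463). Slc25a15, the carrier that moves ornithine between cytosol and mitochondria, fell in males from 163 ± 17.8 to 122 ± 15.7 CPM (log2 fold change -0.41, adjusted p = 0.00228) and passed in all 34 alternatives. Its female log2 fold change was -0.14 (adjusted p = 0.447), and the test of the interaction did not pass (adjusted p = 0.306). Slc7a2, a carrier of arginine and other cationic amino acids in the plasma membrane, fell in both sexes. Ctrlm mice had 13.3 ± 3.69 and cKOm mice 8.53 ± 1.42 CPM (log2 fold change -0.65, adjusted p = 0.03). In females it ranged from 10.4 to 21.7 CPM in Ctrlf and from 7.15 to 10.1 in cKOf mice with no overlap (log2 fold change -0.80, adjusted p = 0.00553). The female fall passed in all 34 alternatives and the male fall in 22. Without the 5 kidneys high in liver transcripts the male change was -0.62 (adjusted p = 0.271), and leaving out Ctrlm kidney 2, 3, 4 or 6 or cKOm kidney 1, 2, 3 or 6 also ended the call (adjusted p from 0.0557 to 0.0787).

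Creatine itself enters cells through Slc6a8, which rose in males while the synthesis genes did not pass. It ranged from 182 to 217 CPM in Ctrlm and from 254 to 280 in cKOm mice with no overlap (log2 fold change 0.39, standard error 0.06, adjusted p = 9.94e-05). Ctrlf mice had 208 ± 11.2 and cKOf mice 231 ± 15.1 CPM of it (SD, n = 6, log2 fold change 0.15, adjusted p = 0.182). The male change of Slc6a8 exceeded the female change by 0.24, which did not pass the test of the interaction (adjusted p = 0.181). The 2 heavy chains that partner amino acid carriers moved in opposite directions in males. Slc3a1, the partner in uptake of cystine and basic amino acids at the brush border, fell from 569 ± 35.6 to 472 ± 40.6 CPM (log2 fold change -0.27, adjusted p = 0.0187), and Slc3a2, the partner of carriers on the blood side, rose from 178 ± 12.4 to 240 ± 8.61 CPM (log2 fold change 0.43, adjusted p = 0.00337). The female log2 fold changes of Slc3a1 and Slc3a2 were -0.03 and 0.06 (adjusted p = 0.888 and 0.816). Neither passed the test of the interaction (adjusted p = 0.274 and 0.158). Without the 5 kidneys high in liver transcripts the calls on Slc6a8, Slc3a1 and Slc3a2 were lost as well, with log2 fold changes of 0.32, -0.27 and 0.31 and adjusted p values of 0.0886, 0.239 and 0.347. Aldh4a1, which oxidizes the product of Oat to glutamate, fell from 242 ± 63.5 to 184 ± 17.7 CPM (log2 fold change -0.39, adjusted p = 0.0374). Its female log2 fold change was -0.04 (adjusted p = 0.916), and the test of the interaction did not pass (adjusted p = 0.326). The male call on Aldh4a1 was lost in 8 of 34 alternatives. Among them, leaving out Ctrlm kidney 5, at 365 CPM, moved the log2 fold change to -0.24 (adjusted p = 0.107), and leaving out Ctrlm kidney 3 or cKOm kidney 1, 3, 4 or 6 left it at -0.39 to -0.36 (adjusted p from 0.0646 to 0.0955).

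The liver enzymes of the urea cycle on the list, Cps1, Otc and Arg1, did not pass in either sex. In males this rested on cKOm kidney 4, without which all 3 were called lower, Arg1 at a log2 fold change of -5.36 in place of -2.64 (adjusted p = 0.0018), Cps1 at -5.68 in place of -2.39 (adjusted p = 0.00172) and Otc at -4.89 in place of -2.10 (adjusted p = 0.0121). In Ctrlm kidneys 1 to 4 Arg1 was 4.61 to 8.72 CPM, and in Ctrlm kidneys 5 and 6 it was 0.939 and 0. Cps1 was 12.7 to 20.4 CPM in the former and 0.417 and 0.285 in the latter, and Otc 1.44 to 3.75 and 0 in both. All 3 were called lower in Ctrlf than in Ctrlm mice. With them, 10 of the 33 genes differed between the sexes in controls (30.3%, beside 16.8%). Named after their values were seen, Prodh2, Slc7a7, Slc7a9 and Slc3a2 were higher in Ctrlf mice, and Ddah1, Odc1 and Slc25a15 lower.

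Outside these lists, the gene whose level over the 24 kidneys ran closest to Ass1 was Hoga1, the mitochondrial aldolase of hydroxyproline breakdown, at a root mean square difference of 0.18 on the log2 scale after centring, against 0.38 for Ass1 around its own mean. Its mean was 166 CPM for Ctrlm, 101 for cKOm, 123 for Ctrlf and 103 for cKOf mice. Closest to Oat was Spp2, a secreted phosphoprotein, at 0.18 against 0.59 for Oat itself, with 95.7, 108, 209 and 203 CPM. Closest to Arg2 was Aadat, an aminotransferase of lysine and kynurenine breakdown, at 0.46 against 1.16, with 422, 676, 2298 and 2094 CPM. Closest to Agmat was Bok, of the Bcl2 family, at 0.49 against 0.68. These are descriptions over 24 kidneys that share the 4 groups.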

How the data were processed

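Total RNA of whole kidneys was sequenced (Illumina TruSeq Stranded mRNA), and the authors deposited counts, whole reads per gene without normalization. Per the labels' processing notes, cutadapt 1.8, STAR 2.5.3a and HTSeq 0.9.1 were used on GRCm38. Reads off genes, in 5 closing lines of each file (34.0 to 41.5% of the reads), were set aside. Names, positions and exon lengths came from GENCODE M21 (55154 of 55335 genes matched). The study names another gene annotation of GRCm38 for its reads, so the exons counted can differ from these.

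Groups came from the labels. A gene entered the tests if any kidney held 1 CPM or more. Tests were those of edgeR 4.0.16 in R 4.3.3 (TMM, quasi-likelihood, 1 model with 4 group means), where the study used limma-voom. Standard errors were derived from these tests, as the absolute log2 fold change divided by the square root of the F statistic. Adjustment followed Benjamini and Hochberg, jointly for both sexes' genotype tests and separately for the interaction and for the sexes, at a threshold of 0.05. Kidneys of a group differed by more than sampling noise (chi-square per degree of freedom 9.83 to 99.2 over 60 pairs), so errors are those between mice. Alternatives were limma-voom (limma 3.58.1), DESeq2 1.42.0, RLE factors, 2 other filters, each sex alone, adjustment within each sex, a replicate block, a liver covariate and each mouse left out. A fit without the kidneys high in liver transcripts (mean log2 CPM of 15 hepatocyte genes above 5) was chosen after seeing the data. The log2 CPM used a prior count of 2. The procedure was tested on simulated data.

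Members and lists were chosen with earlier results of these data known. Named are the 9 genes, Pex5, further pathway genes past the threshold in the male, female or interaction test with Slc6a8, Odc1, Arg1, Otc and Cps1 always, and the gene nearest to each member called in males. Copies were searched with BLAST 2.17.0 (at least 95% identity over 100 bases) and found for Ass1, Ckb and, as its overlapping neighbours, Arg2. Ckb shared 373 bases with Gm12892, which held 7 reads in all kidneys. Ckmt1 overlaps Strc on the opposite strand, which held 12 reads. Promoter windows are from RefSeq (GRCm38.p6). Python 3.11.15 and matplotlib 3.10.9 made tables and figures.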

Additional observations from a re-analysis of the deposited data

Results flagged for a closer look

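Of the values by kidney, 13 of 76 groups of 6 had a highest or lowest kidney that stood apart from the rest by Dixon's test, where chance gives about 1 in 20. Among the 9 genes these were Gatm in Ctrlm kidney 6 at 992.5 CPM (the others 605 to 723), Oat in cKOm kidney 5 at 174.8 CPM (149 to 156), and Ckb in Ctrlf kidney 4 at 112.4 CPM (57.4 to 71.2). In cKOf kidney 6, Ass1 was 1157 CPM (740 to 868), Asl 203.9 (127 to 147) and Ckb 103.8 (58.3 to 66.1), so 3 of the 9 genes were high in the same kidney.

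Among the further genes, Aldh4a1 was 364.8 CPM in Ctrlm kidney 5 (198 to 252 in the others) and Slc6a8 was 182 CPM in Ctrlm kidney 1 (205 to 217). The liver enzymes were high in cKOm kidney 4, with 4.008 CPM of Arg1 (0 to 0.457 in the others), 11.29 of Cps1 (0 to 0.732) and 1.906 of Otc (0 to 0.151), in a kidney with 235 CPM of Alb. Cps1 was 1.547 CPM in Ctrlf kidney 2 (0 to 0.286), and Otc was 0.03991 CPM, a single read, in cKOf kidney 5 and 0 in the other cKOf kidneys.

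The change with deletion differed between the sexes by the test of the interaction for 3 genes. For Arg2 the male change minus the female change was 1.277 on the log2 scale (edgeR adjusted p = 0.0354), for Oat 0.5863 (adjusted p = 0.00552) and for Odc1 -1.326 (adjusted p = 0.00463).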

How the results depend on the processing

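Depth limits Agmat and Arg2 in males, which rested on 7 to 70 and 38 to 167 reads in a kidney. Of the 9 genes, 4 were called in males. This count was 2 with every gene with a count, with limma-voom and with the liver covariate, 1 without the kidneys high in liver transcripts, and 1 to 4 with a mouse left out. The only call left without Ctrlm kidney 3 or 5, or without the liver-high kidneys, was Ass1. In females the count of 1 became 2 with DESeq2, 0 with adjustment within each sex and with each sex fitted alone, and 1 to 2 with a mouse left out. For the interaction, the count of 2 became 1 with limma-voom and without the liver-high kidneys, and 1 to 2 with a mouse left out. Between the sexes, the count of 4 became 2 without the liver-high kidneys and 2 with the liver covariate. Of the further pathway genes, 7 were called in males, 3 without the liver-high kidneys and 4 to 9 with a mouse left out, with 4 without Ctrlm kidney 3. In females the count of 1 became 2 without cKOf kidney 6 and otherwise stayed at 1 to 2.

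Mice with the same number in different groups are different animals, and their deviations did not run together (r from -0.199 to 0.120 over 36 pairs of kidneys, with 1 of 24 kidneys closest to its own number). With the replicate number as a block, 2 of the 9 genes were called in males, 1 in females, 1 for the interaction and 4 between the sexes, and 5 of the further pathway genes in males.

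Over all tested genes, the 1456 calls in males became 599 without the liver-high kidneys and 871 with the liver covariate. The 137 in females became 83 without those kidneys and 43 with adjustment within each sex. The 372 for the interaction became 574 with DESeq2. The 2707 between the sexes became 1570 without those kidneys and 1457 with the liver covariate.

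Directions turned for values that had not been called, and for liver enzymes. Without the liver-high kidneys and with the liver covariate, Gatm was -0.077 and -0.069 in males on the log2 scale and -0.050 and -0.092 between the sexes, and Agmat 0.073 and 0.18 between the sexes. Without the liver-high kidneys alone, Ckb was -0.060 between the sexes, Ckmt1 -0.023 in males and -0.16 for the interaction, Asl -0.080 in males and -0.11 for the interaction, Cps1 0.098 between the sexes and Slc6a8 -0.027 between the sexes. With the liver covariate, Arg1 was 1.13, Cps1 1.81 and Otc 3.28 between the sexes, and Otc 0.85 in males. With limma-voom, Otc was -1.77 for the interaction. With a mouse left out, further values turned sign in some of the fits, and their ranges over all such fits follow. For the interaction they ranged from -0.081 to 0.059 for Gatm, -0.074 to 0.17 for Asl, -1.87 to 2.14 for Otc and -0.0005 to 0.23 for Slc7a2. In females they ranged from -0.22 to 0.094 for Ckb, -0.090 to 0.13 for Asl, -0.65 to 0.67 for Arg1, -0.41 to 1.58 for Cps1 and -0.091 to 0.043 for Odc1. Between the sexes they ranged from -0.018 to 0.24 for Ckb and -0.019 to 0.042 for Slc6a8. The cause was not tested.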
